A study of Mus musculus with 24 samples.

Results

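The response described here is that of the liver to the thyroid hormone T3 in mice whose hormone receptor TRβ carries the changes E125G and G126S in its DNA-binding domain, called GS in the sample titles. Its members are the arrays whose titles start with GS: 3 from mice injected with T3 and 3 from mice injected with PBS, 6 of the 24 arrays of the series. The series measured liver RNA on Affymetrix mouse arrays in male mice of 4 TRβ genotypes, each given T3 or PBS. Besides GS these were the wild type (WT), a knockout of TRβ (KO) and a mutant with Y147F. GS, WT and KO mice, all on a C57BL/6J background, were 8 to 9 weeks old and had been made hypothyroid for 3 weeks with a low iodine diet and drinking water holding 0.02% methimazole, 0.5% perchlorate and 0.3% saccharin. T3 was injected into the abdominal cavity at 20 µg per 100 g body weight, and livers were taken after 6 h. Both GS groups, controls included, had the hypothyroid treatment and the receptor change, and by the labels they differed by the injection alone. The Y147F mice were older, at 10 to 11 weeks, and had more methimazole and perchlorate in their water. Their responses serve here only as a side view, but their arrays entered the choice of genes tested and the spread used in the main tests. The labels confine the receptor change to no tissue, so changes that began in the liver and changes that followed from other organs cannot be told apart. The titles carry a different animal number for every array, so arrays were treated as separate animals. Values of a group are given in the order of submission, and its animals are called the first, the second and the third in that order.

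Thyroid hormone receptors sit on DNA as partners of RXR, mostly at pairs of the half-site AGGTCA, where they hold corepressors without hormone and recruit coactivators with it. TRβ, from Thrb, is the main form in hepatocytes, while TRα, from Thra, is the main form in many other cell types. A short helix of the first zinc finger reads the half-site, and the GS change alters that helix while leaving the hormone-binding domain as it was. Comparing T3 with PBS in GS asks which genes still answer the hormone when the receptor is present and its DNA-reading helix is altered.

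Levels are given as log2 intensities. Responses are differences between T3 and PBS means on that scale, with the SE after ±, and n = 3 arrays in each group. An array level is relative, so levels were compared only between arrays for the same gene. GS array medians lay between 5.94 and 6.00, and the lowest correlation of a GS array with another of its group was 0.994. The hepatocyte marker list had mean levels of 13.55 to 13.77 in the 6 GS arrays, far above the array medians. Thrb itself read 6.81, 6.82 and 6.95 with T3 and 6.934, 6.945 and 6.998 with PBS, a difference of -0.10 ± 0.17, and Thra differed by -0.18 ± 0.12. Neither receptor gene passed the test. The amino acid changes cannot be read from an expression array, and Thrb in KO, at 6.99 with PBS, did not show the loss either, so this probe set checks none of the labels.

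With T3, 21 of 14162 genes changed in GS, 0.148% of those tested (limma, Benjamini-Hochberg adjusted p under 0.05). Of these, 19 rose and 2 fell. In WT, 1505 genes changed, 10.6% of those tested, and in KO 25 genes changed, 0.177%. Changes of at least 2-fold were called for 5 genes in GS and for 192 in WT. The GS genes with the largest rises were Dio1, the deiodinase that forms and clears T3 in liver, the transcribed pseudogene 9030619P08Rik, the retinol-esterifying enzyme Lrat, the adhesion receptor Adgrg3 and the protease-like Adamdec1 of macrophages. In all 21 the T3 arrays lay apart from the PBS arrays. Over all genes tested that was so for 7.31% with T3 above PBS and 5.8% with T3 below, and an unadjusted p under 0.05 was reached by 7% of genes, 634 higher and 358 lower with T3.

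The number of calls depended on single animals. Leaving out the second T3 animal gave 10 calls, the third T3 animal 12, the second PBS animal 10 and the third PBS animal 13. A fit of the 6 GS arrays alone, with the spread estimated from them alone, called 2 genes, Adgrg3 and Coq10a. Of the 21 genes, 8 were called whichever GS array was left out: Dio1, 9030619P08Rik, Lrat, Adgrg3, Coq10a, Art3, Pdp2 and Gch1. Of the 21, 6 missed the threshold when the probe sets of a gene were averaged, at adjusted p from 0.0637 to 0.183 (limma): Art3, Coq10a, D230025D16Rik, Sel1l3, Slc23a2 and Trim14. The pseudogene 4930431P19Rik then fell below the filter on dim genes and was not tested. Art3 then stood at 0.38 and Coq10a at 0.33, both at an adjusted p of 0.0694. For Art3, Coq10a and Trim14 the average took in probe sets too dim to pass the filter.

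RefSeq promoter windows of the GRCm38.p6 build, from 250 bases before to 50 bases after a start site, were found for 15 of the 21 genes. For 4 genes a window is shown because the helix altered in GS reads this kind of sequence. Dio1 had the largest response, Lrat and Adgrg3 had values in GS above those in WT by differences that did not pass the test, and Coq10a responded by less than in WT. Each window runs 5′ to 3′ on the gene's own strand, and capitals mark AGGTCA or its reverse complement TGACCT. Coq10a had another window, chr10:128368931-128369230, which held no such match and is not shown.
Dio1, chr4:107307119-107307418, minus strand: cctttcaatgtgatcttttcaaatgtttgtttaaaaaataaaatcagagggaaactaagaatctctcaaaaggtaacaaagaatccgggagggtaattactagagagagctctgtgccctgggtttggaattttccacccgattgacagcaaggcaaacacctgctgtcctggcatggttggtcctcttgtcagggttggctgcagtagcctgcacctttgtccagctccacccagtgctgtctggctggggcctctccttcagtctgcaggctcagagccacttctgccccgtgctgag
Lrat, chr3:82903925-82904224, minus strand: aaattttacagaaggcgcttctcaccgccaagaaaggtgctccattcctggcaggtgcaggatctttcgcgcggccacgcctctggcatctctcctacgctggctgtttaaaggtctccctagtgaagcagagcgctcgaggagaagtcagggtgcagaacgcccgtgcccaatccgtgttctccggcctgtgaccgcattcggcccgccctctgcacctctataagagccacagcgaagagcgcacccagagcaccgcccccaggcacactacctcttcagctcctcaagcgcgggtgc
Adgrg3, chr8:95017442-95017741, plus strand: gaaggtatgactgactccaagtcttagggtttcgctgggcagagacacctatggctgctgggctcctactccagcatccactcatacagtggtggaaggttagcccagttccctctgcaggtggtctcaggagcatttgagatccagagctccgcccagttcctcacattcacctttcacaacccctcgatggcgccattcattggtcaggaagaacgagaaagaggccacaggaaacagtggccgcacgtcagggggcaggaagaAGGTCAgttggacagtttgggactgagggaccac
Coq10a, chr10:128369988-128370287, minus strand: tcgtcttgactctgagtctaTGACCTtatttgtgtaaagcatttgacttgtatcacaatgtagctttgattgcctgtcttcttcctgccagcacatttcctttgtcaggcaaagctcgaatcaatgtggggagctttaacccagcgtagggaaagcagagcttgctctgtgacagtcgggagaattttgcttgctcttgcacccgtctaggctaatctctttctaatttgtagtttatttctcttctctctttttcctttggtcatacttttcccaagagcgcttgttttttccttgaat

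Searched on both strands, AGGTCA stood in 5 of the 20 windows of the called genes, those of Adgrg3, Art3, Coq10a and Stat5a, and in 16.3% of all 32851 windows. The match in Coq10a lies 230 bases before the start and is the only match in the 20 windows that extends to TAAGGTCA, which 0.731% of all windows hold and which contains the shorter motif. No called gene's window held the direct repeat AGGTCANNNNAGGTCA, which 0.0152% of all windows hold. These windows are short, and a match or its absence describes only their letters.

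The values of Dio1 in GS were 8.86, 7.81 and 8.19 with T3 and 6.13, 6.16 and 5.03 with PBS. Every T3 array lay above every PBS array, and the nearest arrays were 1.65 apart. The measured rise was 2.52 ± 0.28 (adjusted p = 8.51e-05, limma). In WT the PBS arrays read 4.49 to 5.06, below the 40th percentile of their arrays, and the lowest GS PBS value was as dim. The WT response of 6.63 is thus a distance from a level near background, and no fold is given. KO rose by 1.82. As measured, GS minus WT was -4.11 ± 0.40 (adjusted p = 2.53e-06), a difference whose exact size the dim controls leave uncertain. With T3, where the gene was bright, the WT arrays read 10.92 to 11.67 and lay above all GS arrays. GS and KO responses differed by 0.69 (95% interval -0.14 to 1.52). Of the 12 tested genes of deiodination, transport and hormone carriers, Dio1 was the only one called, and the median of the list was 0.02, beside 0.00 over all genes.

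**Figure D1:**
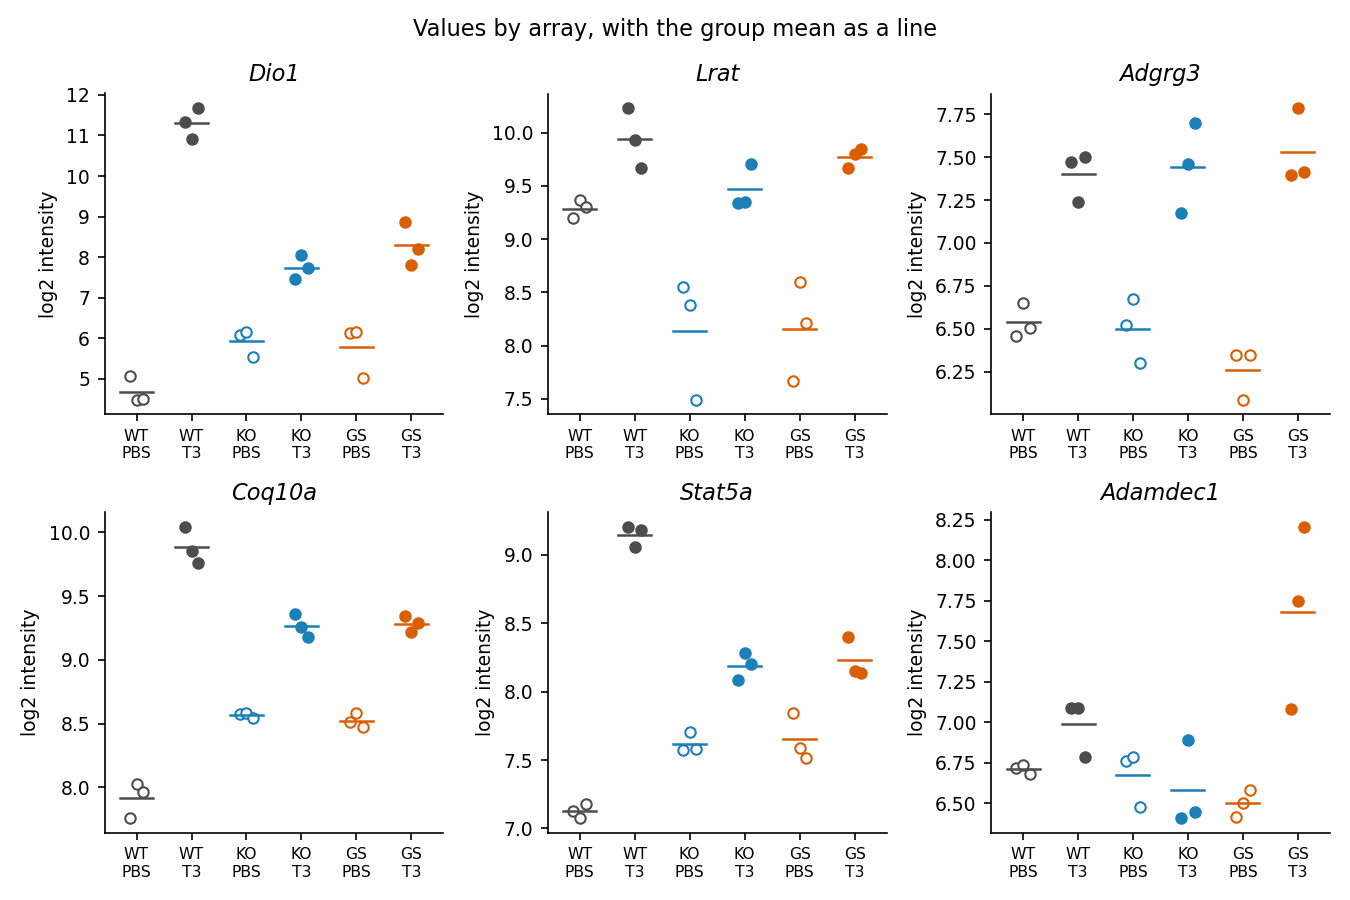
Log2 intensity of 6 genes in each array of WT, KO and GS, with open points for PBS, filled points for T3 and a line at the mean of 3 arrays. In GS the T3 arrays of all 6 genes lie above the PBS arrays, Dio1 with T3 stays under its WT level, and Lrat starts lower in GS and KO than in WT.

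The pseudogene 9030619P08Rik, on chromosome 15 at 75427606 to 75431829, read 9.93, 8.33 and 9.47 with T3 and 6.88, 7.25 and 6.43 with PBS. The second T3 animal was the lowest of the treated animals for it, as for Dio1, and was still above all controls. Its rise was 2.39 ± 0.26 (adjusted p = 8.51e-05), against 4.40 in WT and 3.30 in KO, and the difference from WT was -2.02 ± 0.37 (adjusted p = 0.00242). Whether its probes also read related genes was not examined, so its identity is less certain than that of a coding gene.

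Lrat, which stores vitamin A in hepatic stellate cells by esterifying retinol, read 9.66, 9.80 and 9.85 with T3 and 7.66, 8.59 and 8.21 with PBS. The treated animals lay close together and the controls spread over 0.93. The rise of 1.61 ± 0.22 (adjusted p = 9.21e-04) is 3.06-fold. It rose in KO as well (1.33), while the WT value of 0.66 missed the threshold (adjusted p = 0.065). A second probe set of Lrat gave 0.89 in GS. The difference between GS and WT, 0.96 ± 0.31, did not pass (adjusted p = 0.127). With PBS the Lrat mean was 8.16 in GS, 8.14 in KO and 9.29 in WT, and with T3 it was 9.77, 9.47 and 9.94.

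Among 17 tested genes of retinoid storage and metabolism, Lrat was the only call and the median was 0.02. The retinoic acid receptor Rarb stood at 0.50 ± 0.21 (adjusted p = 0.676) and the retinoic acid hydroxylase Cyp26b1 at 0.62 ± 0.33 (adjusted p = 0.756), both with T3 arrays above PBS arrays. Cyp26b1 fell in WT by 1.13, and the GS response differed from it by 1.75 ± 0.46 (adjusted p = 0.042). Lrat is also a stellate cell marker, and the other 13 tested stellate and fibroblast markers had no call. With Lrat, the list had a median of -0.06 and mean levels of 8.45 to 8.68 with T3 and 8.40 to 8.50 with PBS. In whole liver, fewer cells of a type and less RNA per cell cannot be told apart.

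Adgrg3, an adhesion G protein-coupled receptor known from leukocytes, read 7.40, 7.79 and 7.41 with T3 and 6.35, 6.09 and 6.35 with PBS. The nearest arrays of the groups were 1.05 apart. Its rise of 1.27 ± 0.14 (adjusted p = 8.51e-05) is 2.41-fold, and it was called also from the 6 GS arrays alone. It rose by 0.87 in WT and 0.95 in KO. The difference between GS and WT was 0.40 ± 0.19 (adjusted p = 0.358).

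Another 2 genes rose in GS, WT and KO. Pxdn, a peroxidase that cross-links collagen IV, read 8.30, 8.26 and 8.01 with T3 and 7.47, 7.10 and 7.29 with PBS, a rise of 0.90 ± 0.15 (adjusted p = 0.00673). Art3, of the ADP-ribosyltransferase family, read 6.23, 6.46 and 6.42 with T3 and 5.72, 5.49 and 5.65 with PBS and rose by 0.75 ± 0.10 (adjusted p = 9.07e-04), a call that was lost with its probe sets averaged. In both genes all T3 arrays lay above all PBS arrays. Pxdn rose by 0.78 in WT and 0.76 in KO, and Art3 by 0.88 and 0.76. The difference between GS and WT was 0.12 ± 0.21 for Pxdn and -0.13 ± 0.14 for Art3, and neither passed the test.

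Of the calls, 2 belonged to the list of coenzyme Q synthesis and pyruvate dehydrogenase. Coq10a, a coenzyme Q-binding protein of the inner mitochondrial membrane, read 9.35, 9.22 and 9.29 with T3 and 8.51, 8.58 and 8.48 with PBS. Both groups were tight and lay 0.64 apart. It rose by 0.76 ± 0.09 (adjusted p = 1.68e-04), against 1.97 in WT and 0.70 in KO, and the GS response minus that of WT was -1.21 ± 0.13 (adjusted p = 6.07e-06). Averaged over its probe sets, which included dim ones below the filter, the rise of Coq10a was 0.33 and did not pass. Pdp2, the phosphatase that reactivates pyruvate dehydrogenase, read 9.33, 9.16 and 9.21 with T3 and 8.58, 8.67 and 8.59 with PBS. It rose by 0.62 ± 0.08 (adjusted p = 4.75e-04), against 1.88 in WT. Of the 23 tested genes of that list these 2 were called, beside 0.148% of all genes, and the median was 0.03. A smaller response than in WT was found for 5 of the 23, where 2.92% of all genes differed from WT in either direction. None of the 23 tested subunits of oxidative phosphorylation was called. Of these, 2 were higher with T3 at an unadjusted p under 0.05, as were 634 of all 14162 genes.

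Gch1, the first enzyme of tetrahydrobiopterin synthesis, read 12.34, 12.24 and 12.36 with T3 and 11.80, 11.75 and 11.64 with PBS. It rose by 0.58 ± 0.09 (adjusted p = 0.00353), and its other probe set gave 0.54. The response in WT was 1.31, and GS minus WT was -0.73 ± 0.13 (adjusted p = 0.00153). The other 9 tested genes of tetrahydrobiopterin synthesis and use were not called.

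Stat5a, which carries growth hormone and prolactin signals to the nucleus, read 8.40, 8.15 and 8.14 with T3 and 7.84, 7.59 and 7.52 with PBS. It rose by 0.58 ± 0.09 (adjusted p = 0.00673), and its other probe set gave 0.74. WT rose by 2.02, and GS minus WT was -1.44 ± 0.13 (adjusted p = 1.32e-06), while KO rose by 0.57. Without the first T3 animal, the second PBS animal or the third PBS animal it missed the threshold, at adjusted p from 0.0503 to 0.0718. Among the 15 tested genes of growth hormone, STAT5 and IGF signalling it was the only call. Its relative Stat5b stood at 0.32 ± 0.08 (adjusted p = 0.26) and rose in WT by 1.45. The hormone Igf1 stood at -0.29 and its serum partner Igfals at -0.35, both at an unadjusted p under 0.05 with overlapping groups. Socs2, which growth hormone induces and which fell by 3.71 in WT, stood at -0.29 ± 0.42 in GS, with values of 8.55, 9.24 and 9.16 with T3 and 8.91, 8.94 and 9.99 with PBS.

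The ascorbate transporter Slc23a2 read 9.64, 9.73 and 9.78 with T3 and 9.03, 8.65 and 9.07 with PBS, a rise of 0.80 ± 0.14 (adjusted p = 0.00945). The second PBS animal was the lowest, and the groups did not overlap. WT rose by 0.96, and KO stood at -0.02. The difference between GS and KO was 0.82 (95% interval 0.42 to 1.22, adjusted p = 0.512). A second probe set of Slc23a2, dim at 5.53 with PBS in GS, gave 0.10 in GS and 0.01 in WT, so the 2 did not behave alike. Sel1l3 rose by 0.78 ± 0.15 (adjusted p = 0.0328), against 1.92 in WT, and was not called in any of the 6 fits that left out a GS array. Its second probe set, at 5.99 with PBS in GS, gave 0.14 in GS and 0.04 in WT.

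Of the other rises, Trim14, which acts in antiviral signalling, rose by 0.56 ± 0.10 and Mmd, a membrane protein named for macrophage differentiation, by 0.52 ± 0.09. Both had smaller responses than in WT, with differences of -0.93 and -0.82. D230025D16Rik rose by 0.57 ± 0.10, against 1.02 in WT. Their adjusted p-values (limma) were 0.0237, 0.0176 and 0.0176, and Trim14 and Mmd were each called in 1 of the 6 fits that left out a GS array.

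Of the 19 genes that rose in GS, 5 were not called in WT: Lrat, Adamdec1, the nucleotide-clearing enzyme Dctpp1, the leukocyte adhesion receptor Adgre5 and the pseudogene 4930431P19Rik. Dctpp1 rose by 0.38 ± 0.06, and WT stood at 0.14. The pseudogene read 5.82, 5.67 and 5.74 with T3 and 5.29, 5.25 and 5.30 with PBS, a rise of 0.46 ± 0.08 from a dim level. It was the only one of the 5 whose difference from WT passed (0.53 ± 0.11, adjusted p = 0.0069), and WT stood at -0.07.

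Adamdec1 read 7.08, 7.75 and 8.21 with T3 and 6.42, 6.50 and 6.58 with PBS. It rose by 1.18 ± 0.21 (adjusted p = 0.0176), and the third T3 animal was the highest. Without that animal the value was 0.92 and did not pass (adjusted p = 0.161), and Adamdec1 was called in 1 of 6 such fits. Adgre5 rose by 0.40 ± 0.08 (adjusted p = 0.0328) and was also highest in the third T3 animal, without which it missed the threshold at 0.34 (adjusted p = 0.234). It missed it as well without the second T3 animal, the first PBS animal or the third PBS animal, at adjusted p from 0.127 to 0.273 (limma). The third T3 animal had the highest mean level of the 14 Kupffer cell and macrophage markers, which was 8.71, 8.90 and 9.53 with T3 and 8.69, 8.80 and 8.81 with PBS.

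Those 14 markers all had values above 0 in GS, from 0.10 for Cd163 to 0.45 for Lyz2, with a median of 0.27. None was called or reached an unadjusted p under 0.05. Clec4f, Cd68 and C1qb had T3 arrays above PBS arrays, which held for 7.31% of all genes. Their summed intensity was 9052 to 15373 in treated and 8886 to 9747 in control arrays, and without the third T3 animal the median was 0.03. The part of this in the rises of Adamdec1 and Adgre5 was not tested. The class II antigen H2-Aa, at 0.70 ± 0.19 (adjusted p = 0.288), was again highest in the third T3 animal, and its response differed from that of WT by 1.13 ± 0.27 (adjusted p = 0.0222).

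Of the 12 sinusoidal endothelial markers, 11 had values below 0 and none was called. The median was -0.15 in GS, -0.20 in WT and -0.16 in KO. Oit3, Fcgr2b, Kdr and Clec4g were lower at an unadjusted p under 0.05, as were 358 of all 14162 genes. In 7 of the 12 the T3 arrays lay below the PBS arrays, beside 5.8% of all genes. Mean levels were 9.00 to 9.10 with T3 and 9.16 to 9.28 with PBS, and summed intensities 7641 to 8329 and 8991 to 9349. The part of this in any call was not tested. The 10 hepatocyte markers had a median of -0.05, and 3 of them, Cps1, Tat and Ass1, had T3 arrays below PBS arrays, beside 5.8% of all genes. Their mean level was 13.55 to 13.70 with T3 and 13.74 to 13.77 with PBS, so this list too was lower in all 3 T3 arrays. Lymphocyte and neutrophil markers, 9 tested, had a median of 0.13 with overlapping groups throughout.

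**Figure D2:**
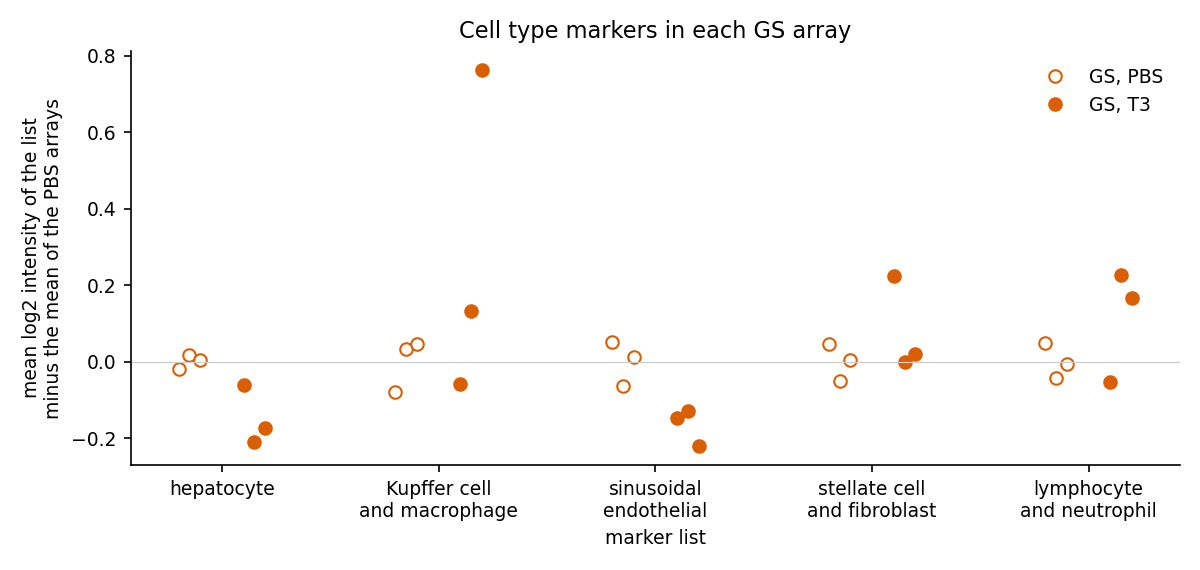
Mean log2 intensity of 5 marker lists in each of the 6 GS arrays, relative to the mean of the PBS arrays, with open points for PBS and filled points for T3. One T3 animal stands far above the rest for Kupffer cell and macrophage markers. Sinusoidal endothelial markers and hepatocyte markers are both lower in all 3 T3 arrays than in the PBS arrays.

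The 2 genes that fell were Adam23, a member of the ADAM family without protease activity, and Rtn2, a reticulon of the endoplasmic reticulum. Adam23 read 7.21, 6.95 and 7.06 with T3 and 7.62, 7.82 and 7.81 with PBS, a fall of -0.68 ± 0.13 (adjusted p = 0.0328), and it fell in WT too (-0.49). Its 3 probe sets gave -0.27 to -0.68. Rtn2 fell by 0.45 ± 0.09 on the log2 scale (adjusted p = 0.0468) and stood at -0.17 in WT, without a call. It was dim, with GS means of 5.54 with PBS and 5.09 with T3. The T3 mean lay below the 40th percentile of each GS T3 array, 5.39 to 5.45. Leaving out single GS arrays kept Adam23 in 2 and Rtn2 in 1 of 6 fits.

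**Figure D3:**
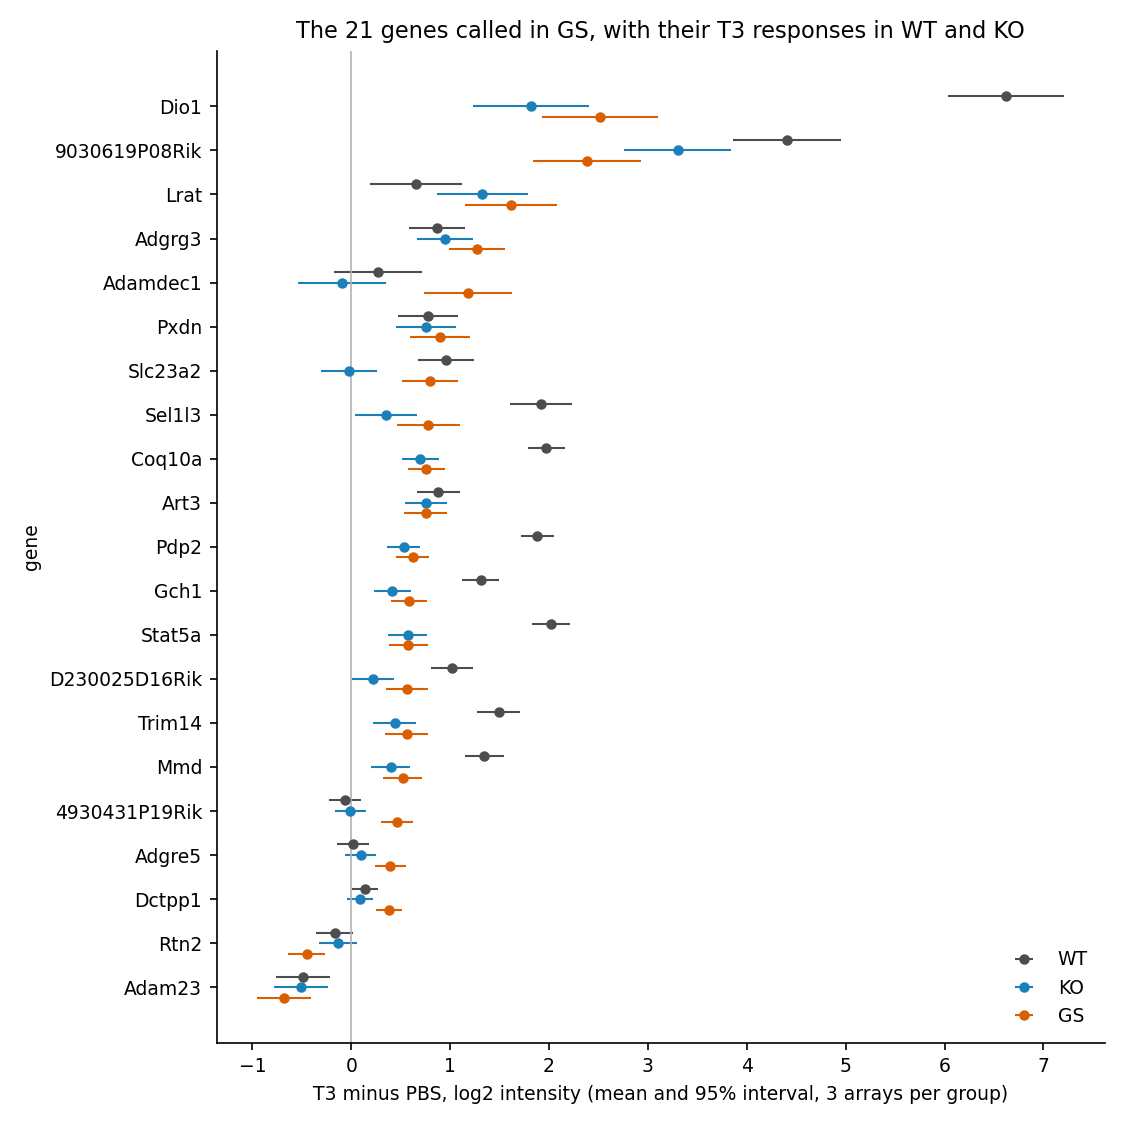
T3 minus PBS on the log2 scale with 95% intervals for the 21 genes called in GS, beside the same genes in WT and KO, with 3 arrays in each group. GS and KO intervals overlap for most genes, whereas Dio1, Coq10a, Pdp2, Stat5a and Gch1 reach further in WT.

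Of the genes that rose in GS, 14 also rose in WT, 73.7% of the GS genes and 1.73% of the 811 WT genes. With KO the overlap was 9 genes, 47.4% of the GS genes and 50% of the 18 KO genes. These contrasts share no arrays but share the estimate of each gene's spread, so their calls are not independent. Of the GS genes, 8 also rose in each of WT, KO and Y147F. Of the 14 shared with WT, 9 had a smaller response in GS. The response of GS differed from that of WT for 414 genes, 2.92% of those tested. Of these, 273 were raised in WT with a lower response in GS. Another 120 were lowered in WT with a response in GS that was less negative or above 0, and 21 were not called in WT. Between GS and KO no gene's difference in response passed the test (0 by limma, 809 at an unadjusted p under 0.05), and leaving out the second PBS animal of KO gave 1 gene. That does not show that GS and KO respond alike, and the interval given for Slc23a2 reaches 1.22.

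Most of the WT response was small in GS. The 811 genes raised in WT had a median of 0.49 there, 0.09 in GS and 0.10 in KO. In GS 617 of them, 76.1%, had values above 0, where 51.7% of all genes did, and 214 of them, 26.4%, had T3 arrays above PBS arrays, beside 7.31% of all genes. For the 131 genes raised at least 2-fold in WT the medians were 1.36 and 0.20, and 10 of them were called in GS. The 694 genes lowered in WT had medians of -0.45 in WT and -0.06 in GS, and 14.8% had T3 arrays below PBS arrays, beside 5.8% of all genes. Of the 61 lowered at least 2-fold in WT none was called in GS, where their median was -0.19 and 49 had values below 0.

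**Figure D4:**
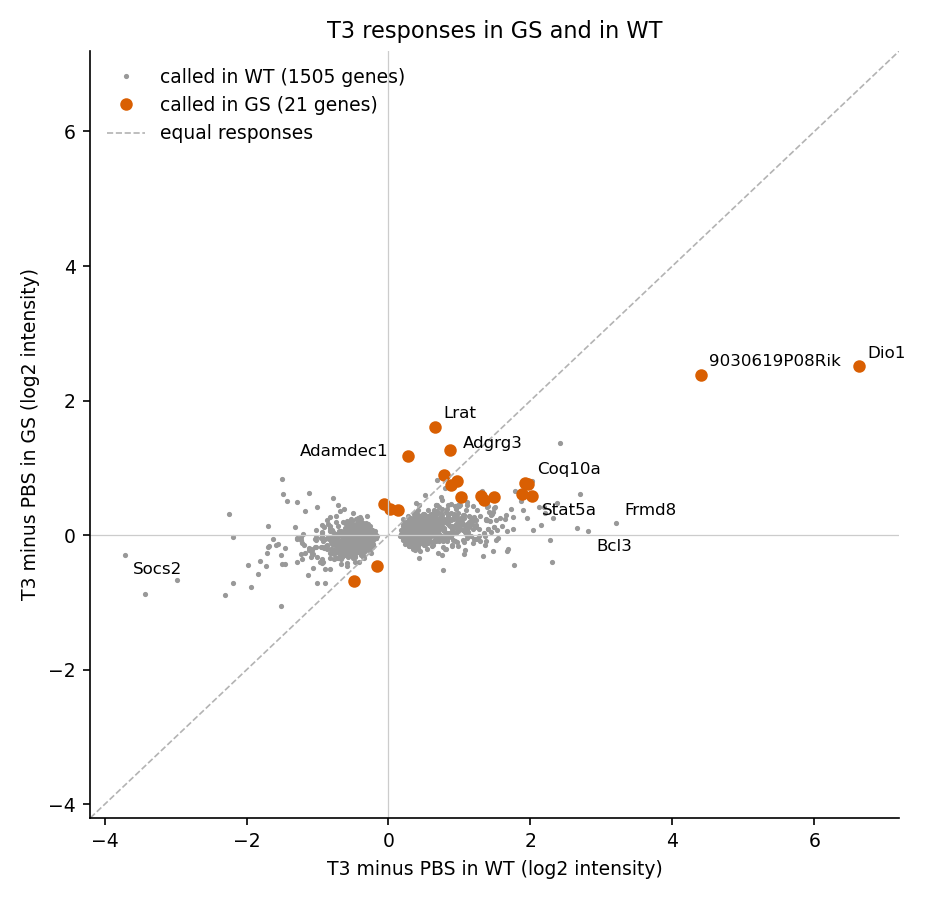
T3 minus PBS in GS against the same difference in WT, both on the log2 scale, for the 1505 genes called in WT (grey) and the 21 called in GS (orange), with a dashed line for equal responses. Most grey points lie near 0 in GS, Dio1 and 9030619P08Rik lie far below the line, and Lrat, Adgrg3 and Adamdec1 lie above it.

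Single genes show the contrast with WT. Frmd8, which rose by 3.21 in WT, read 9.26, 9.32 and 9.10 with T3 and 9.05, 9.07 and 9.03 with PBS in GS, a difference of 0.18 ± 0.18. The NF-κB cofactor Bcl3, raised by 2.82 in WT, stood at 0.07 ± 0.17, and GS minus WT was -2.75 ± 0.24 (adjusted p = 8.74e-07). The GS PBS mean of Bcl3 was 8.45, between the WT means of 7.35 with PBS and 10.16 with T3. The mitochondrial carrier Slc25a45 came closer to a call, at 0.61 ± 0.13 (adjusted p = 0.0587), with WT at 2.70.

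Of 20 listed hepatic T3 target genes 19 were tested. Of these, 1 was called in GS, Dio1, and 11 in WT, beside 0.148% and 10.6% of all genes, with medians of 0.07 and 0.66. In 6 of the 19 the GS T3 arrays lay above the PBS arrays, beside 7.31% of all genes. These were Dio1, Gpd2, Idh3a, Cpt1a, Klf9 and Me1. In 3, Thrsp, Fasn and Acaca, they lay below, beside 5.8%. The GS median was 0.00 without the third T3 animal and 0.11 without the third PBS animal. The mitochondrial glycerol phosphate dehydrogenase Gpd2 read 10.49, 10.24 and 10.47 with T3 and 10.23, 9.67 and 9.87 with PBS, 0.48 ± 0.14 (adjusted p = 0.373). The lowest T3 value lay only just above the highest PBS value. The citric acid cycle subunit Idh3a stood at 0.33 ± 0.11 and the fatty acid importer Cpt1a at 0.31 ± 0.12, neither called. The transcription factor Klf9 stood at 0.34 ± 0.12 in GS, 0.38 in WT and 0.32 in KO, and of these 3 only WT passed the test. For 6 of the 19 targets the response was smaller than in WT, among them Gpd2 with a difference of -1.90 and Idh3a with -1.88. Over all genes, 2.92% differed from WT in either direction. The hepatokine Fgf21 stood at 0.41, the glucose-6-phosphatase subunit G6pc at 0.22 and the hormone transporter Slc16a10 at 0.08. The corepressor Hr and the coactivator Ppargc1a both stood at -0.07. The gluconeogenic enzyme Pck1 stood at -0.12 and the pyruvate dehydrogenase kinase Pdk4 at -0.09. None of these 7 was called in GS, and their groups overlapped.

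No lipogenic target was called in GS. Thrsp, a regulator of lipogenesis, read 13.77, 13.60 and 13.72 with T3 and 13.78, 13.93 and 13.82 with PBS, -0.15 ± 0.25, and its response differed from the WT rise of 1.36 by -1.51 ± 0.35 (adjusted p = 0.019). Fatty acid synthase Fasn stood at -0.52 ± 0.37, the acetyl-CoA carboxylase Acaca at -0.29 and the malic enzyme Me1 at 0.24 ± 0.22. Mlxipl, which drives lipogenic genes when glucose is high, stood at -0.03 in GS and rose in WT by 0.88. Of 20 genes of fatty acid and triglyceride synthesis none was called in GS and 14 had values below 0. The median was -0.11 in GS and 0.28 in WT. The response was lower than in WT for 5 genes and higher for 1, where 2.92% of all genes differed in either direction. That 1 was Lpin2, at 0.29 ± 0.10 in GS and -0.30 in WT, a difference of 0.59 ± 0.14 (adjusted p = 0.0181, limma). In 7 of the 20 the T3 arrays lay below the PBS arrays, beside 5.8% of all genes, and in 3 above, beside 7.31%.

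The paired sterol exporters Abcg5 and Abcg8 stood at 0.56 ± 0.16 (adjusted p = 0.373) and 0.60 ± 0.18 (adjusted p = 0.391), with no overlap of groups, and both rose in WT, by 0.75 and 1.06. Cyp7a1, which starts the conversion of cholesterol to bile acids, read 10.35, 10.09 and 10.82 with T3 and 10.35, 11.64 and 10.63 with PBS, -0.45 ± 0.43, where WT rose by 1.77. None of the 17 tested genes of bile acid and sterol disposal was called, and their median was 0.01. Of the 16 tested genes of cholesterol synthesis and uptake none was called, and 14 had values below 0 with a median of -0.12. That median rested on single animals: it was 0.02 without the first PBS animal, -0.01 without the third T3 animal and -0.24 without the first T3 animal.

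Among uncalled genes with an unadjusted p under 0.01 and groups that did not overlap, the lowest response was that of Fkbp5, a glucocorticoid-inducible cochaperone of HSP90. It read 9.90, 8.96 and 9.74 with T3 and 10.03, 10.84 and 10.88 with PBS, -1.05 ± 0.21 (adjusted p = 0.0519), and it fell in WT by 1.51 while KO stood at 0.03. The T3 and PBS arrays of Fkbp5 came close, since the first PBS animal was low. Tsc22d3, which glucocorticoids also induce, stood at -0.71 ± 0.25 (adjusted p = 0.531) and Ddit4, an inhibitor of mTORC1, at -0.74 ± 0.26 (adjusted p = 0.538). For these 3 genes the first PBS animal was the lowest control. The ceramide synthase Cers6 stood at -0.76 ± 0.24, and Mmp19, a metalloproteinase, at -0.60 ± 0.20, with a response differing from that of WT by -1.22 ± 0.28 (adjusted p = 0.0186).

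The highest responses chosen in the same way included those of the major urinary protein Mup10 (1.37 ± 0.44), the defensin Defb1 (0.90 ± 0.26), the potassium channel subunit Kcnj8 (0.82 ± 0.17, adjusted p = 0.0572), the phosphodiesterase Gpcpd1 (0.80 ± 0.21) and the peroxisomal Nudt7 (0.72 ± 0.23). Defb1 stood at -0.16 in WT and 0.27 in KO, and the probes of Mup10 may read other major urinary proteins too. Gpcpd1 and Nudt7 rose in WT by 2.02 and 1.97, more than in GS by differences of -1.22 and -1.26. In all, 218 uncalled genes had an unadjusted p under 0.01 and no overlap of groups, 152 with T3 above PBS and 66 below.

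No member of the remaining hepatic lists was called in GS. Among others, that holds for gluconeogenesis and glycolysis (16 tested, median -0.11), insulin and FOXO genes (23, -0.02), the circadian clock (16, -0.09), acute phase proteins (18, -0.03), interferon-stimulated genes (16, 0.01), hepatocyte transcription factors (12, -0.10), apolipoproteins (16, 0.03) and fatty acid oxidation (18, 0.06). The insulin receptor substrate Irs1 stood at -0.35 and the PI3K subunit Pik3r1 at -0.40, both at an unadjusted p under 0.05. The metallothioneins Mt1 and Mt2 fell in WT, by 1.84 and 2.30, and in GS stood at -0.58 ± 0.49 and -0.88 ± 0.54. Their GS PBS arrays spread widely, from 10.95 to 12.95 for Mt1, with the first animal lowest.

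**Figure D5:**
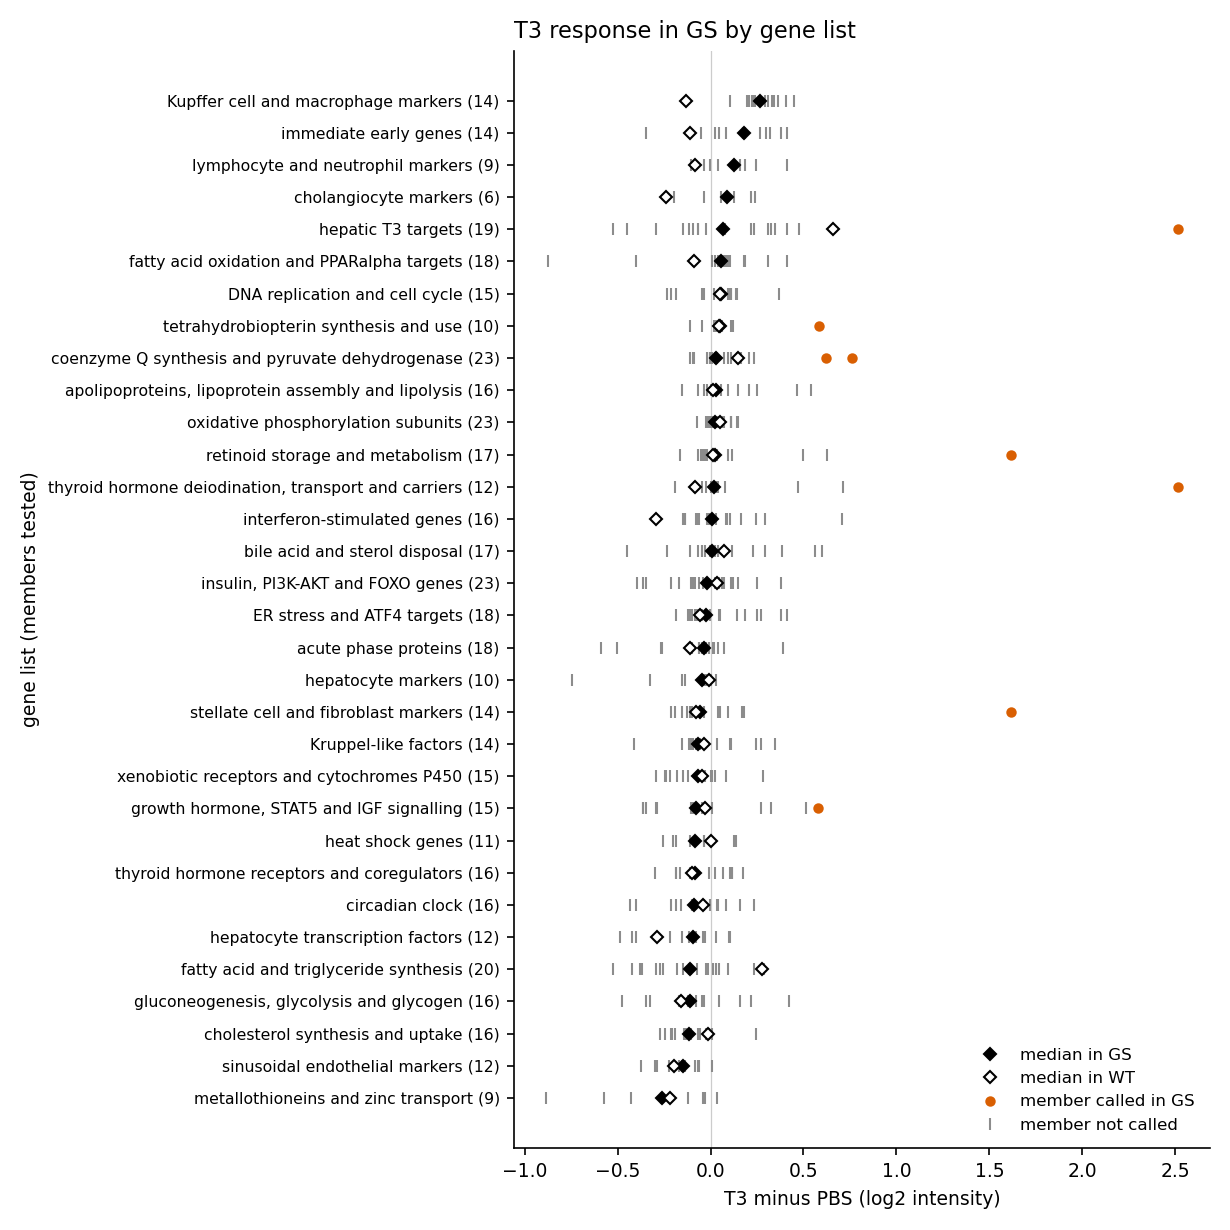
T3 minus PBS in GS on the log2 scale for the tested members of each gene list, with orange points for called members and grey ticks for the others, beside the median of the list in GS (filled diamond) and in WT (open diamond). Medians in GS lie between -0.26 and 0.27, and the median of the hepatic T3 targets is 0.07 in GS and 0.66 in WT.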

How the data were processed

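Per the labels, the authors hybridised 200 ng of liver RNA per array and used RMA to summarise them. The deposited values are on the log2 scale, which the range of 18 columns also shows. The version of RMA and the genome build are not given in the sources used here. For Y147F, the other 6 columns, values were deposited with the decimal mark lost. It was put back where the value then lay from 3 to 16, and 775 cells, 0.286%, that a spreadsheet could have altered further were set missing. The same damage and repair applied to the 18 intact columns returned no wrong value, which checks the steps and not the assumption.

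Of 45101 probe sets, 34958 had 1 gene symbol in the platform annotation, 932 had several and 9211 had none. For each of 18194 genes the brightest probe set on average was kept, and 14162 genes reached the 40th percentile of their array in at least 3 arrays and were tested. A linear model of 8 group means was fitted to all 24 arrays with limma 3.58.1 in R 4.3.3, with 16 residual and 4.28 prior degrees of freedom. The spread was thus shared by all groups. The p-values are two-sided, were adjusted over all genes of a contrast by the Benjamini-Hochberg method, and counted as a call under 0.05. Contrasts were T3 minus PBS in each genotype and the differences of the GS response from those of WT and KO. On data simulated for the GS response, with 50 changed genes per size, the share recovered was 88% at 1.5-fold and 98% at 2-fold. In that run 8 unchanged genes were called too. All sizes, from 1.3-fold to 3-fold, were changed together with normally distributed noise, so more genes changed than the 21 called in GS. That eases the adjusted threshold, so the shares recovered may be too high for GS.

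The members of this comparison, the gene lists and the tests were chosen with earlier results of these data known, so lists are described by counts and medians alone. Genes were named from all those called in GS, the 10 largest rises and falls among uncalled genes with an unadjusted p under 0.01 and groups that did not overlap, the largest differences from WT, the 10 largest WT changes each way, Thrb, Thra, every listed hepatic T3 target and, from each list, up to 4 members with the smallest p in GS, and clones could be left out. Promoter sequences and gene positions are those of RefSeq for GRCm38.p6, matched by symbol. Precision is limited by the 3 arrays per group. The settings tried instead were the 18 first-submitted arrays, the arrays compared alone, quantile normalisation, no filter or one at the 60th percentile, averaged probe sets, trend and robust moderation, array weights, a covariate splitting high from low title numbers, neighbouring title numbers of GS as extra terms, and leaving out each array in turn. The list medians without single GS arrays were added after seeing the data.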

Additional observations from a re-analysis of the deposited data

Results flagged for a closer look

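For these genes the T3 response in GS minus that in WT passed limma's test of the difference, with values on the log2 scale. Among genes called in GS the differences were -4.11 for Dio1, whose WT control arrays were near background, -2.02 for 9030619P08Rik, -1.44 for Stat5a, -1.26 for Pdp2, -1.21 for Coq10a, -1.14 for Sel1l3, -0.93 for Trim14, -0.82 for Mmd and -0.73 for Gch1. The pseudogene 4930431P19Rik went the other way, at 0.53.

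Among genes raised in WT and not called in GS, the differences were -3.03 for Frmd8, -2.75 for Bcl3, -2.70 for the organic anion transporter Slc22a7, -2.54 for the proapoptotic Bmf, -2.09 for the mitochondrial carrier Slc25a45 and -2.06 for the stress gene Gadd45a. They were -2.00 for Trim7, -1.96 for Ankrd33b, -1.90 for Gpd2, -1.90 for the ribonucleotide reductase subunit Rrm2 and -1.88 for Idh3a. Smaller ones were -1.51 for Thrsp, -1.26 for Nudt7, -1.22 for Gpcpd1 and -0.90 for the lipogenic transcription factor Mlxipl.

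Among genes lowered in WT and not called in GS, the differences were 3.42 for Socs2, 2.56 for the nuclear receptor Nr4a1, 2.55 for the peroxisomal thioesterase Acot3, 2.34 for the surface protein Cd24a, 2.31 for Nipal1 and 2.16 for the activin subunit Inhbe. They were 2.10 for Scara3, 1.83 for the DNA repair nuclease Dclre1a, 1.75 for Cyp26b1, 1.57 for Etfbkmt, 1.54 for the monooxygenase Fmo2, 1.54 for Id4 and 1.48 for the transglutaminase Tgm1.

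Of the genes called in neither genotype, H2-Aa differed by 1.13 and Mmp19 by -1.22. H2-Aa was highest in the third T3 animal, which also had the highest macrophage markers, and the part of that in the difference was not tested.

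Outside the genes with 1 symbol, 4 probe sets without a symbol passed the same test in GS, 3 higher with T3 (0.84, 1.12 and 1.28) and 1 lower (-0.58). They entered no comparison above.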

How the results depend on the processing

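The count of 21 genes called in GS was within 1.5 times of that under most settings, with these exceptions. The 6 GS arrays alone gave 2 calls, 2 higher and 0 lower. Array weights gave 33, of which 30 were higher. The 2 falls became 1 with the filter at the 60th percentile, 1 with trend and robust moderation and 1 with the covariate for title numbers. Leaving out single GS arrays gave 10 to 22 calls, 9 to 19 higher and 0 to 4 lower. Of the genes whose response in GS exceeded that in WT, 137 in the model used, array weights gave 217 and leaving out single arrays 77 to 121, with 77 when the third T3 animal of WT was left out. The count of differences between GS and KO was 0 to 1 without single arrays, and the 1, a higher response in GS, came without the second PBS animal of KO. The GS median of the genes lowered in WT, -0.06, was -0.04325 with the mean of the probe sets, and -0.07784 to -0.04958 without single GS arrays. The cause of these shifts was not tested. None of the 21 called genes changed sign in any setting run. The medians of 11 of the 33 gene lists, most of them near 0, changed sign with averaged probe sets or without a single GS array. These were the lists of deiodination, insulin and FOXO genes, bile acid disposal, cholesterol synthesis, retinoids, cytochromes P450, Kruppel-like factors, interferon-stimulated genes, ER stress, cell cycle and stellate cells. No label ties a T3 animal to a PBS animal. With neighbouring title numbers taken as pairs of GS animals, 22 genes were called, 20 higher and 2 lower, and Sel1l3 (adjusted p = 0.0512) and Adam23 (adjusted p = 0.06) missed the threshold.

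With 3 arrays per group, 38% of simulated 1.3-fold changes were recovered, a share that may be too high for GS, so many GS changes of that size would be missed. Counted over all settings, the 21 called genes kept their call in 245 values and lost it in 87, of which 19 came from fitting the 6 GS arrays alone. Named genes that were not called gained a call in 14 values. Quantile normalisation lost Adgre5, Rtn2 and Trim14, and the 18 first-submitted arrays lost Adgre5, Mmd and Trim14.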

Other observations

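The immediate early genes, which stress and growth signals induce within minutes, were mostly above 0 in GS, 12 of 14 tested, with a median of 0.18 beside 0.00 over all genes. The median was 0.02 without the second T3 animal and 0.30 without the third PBS animal. None was called or reached an unadjusted p under 0.05, and no gene of the list had T3 arrays apart from PBS arrays. Myc stood at 0.41, Junb at 0.38, Nr4a1 at 0.32 and Zfp36 at -0.34.

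Zinc handling genes lay mostly below 0, 8 of 9 tested, with a median of -0.26 and no call. The zinc importer Slc39a14 stood at -0.43 and the zinc exporter Slc30a1 at -0.27, both with an unadjusted p under 0.05 and groups that did not overlap. Over all genes, 5.8% had T3 arrays below PBS arrays. Of the transcription factors of hepatocytes, Foxa3 stood at -0.49 and Prox1 at -0.40, again at an unadjusted p under 0.05 and without a call.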
